A study of Canis lupus familiaris with 36 samples.

Results

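The genes described here encode nuclear subunits of the mitochondrial respiratory chain, measured in lymphoma tissue of dogs. They were chosen by name, with earlier results of these data known. The 42 symbols of subunits of complexes I to IV and cytochrome c were looked up in the platform annotation. Of these, 36 had a probe set, out of 15115 genes with one. UQCRB, COX5A, COX6A1, COX6C, COX7A2 and COX7C had none under those symbols and were not analysed here. The 36 measured genes comprise 21 subunits of complex I, 4 of complex II, 7 of complex III counted together with cytochrome c, and 4 of complex IV. Where a gene had several probe sets, the one brightest on average across the 36 arrays stood for it.

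Oxidative phosphorylation is the process by which mitochondria make most of the ATP of a resting cell. Complex I takes electrons from NADH and complex II takes them from succinate, both pass them through ubiquinone to complex III, and cytochrome c carries them on to complex IV, which reduces oxygen. Complexes I, III and IV pump protons across the inner membrane, and ATP synthase, complex V, uses that gradient. Complexes I, III and IV are built from nuclear genes and from genes of the mitochondrial genome, whereas complex II is wholly nuclear. Lymphocytes that leave the resting state are known to build up mitochondria as well as glycolysis.

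Expression was measured in primary tumours from 35 dogs on 36 Affymetrix arrays, after mechanical dissociation and filtering of the tissue. The B phenotype held 10 dogs with diffuse large B-cell lymphoma (DLBCL, high grade, aged 4 to 14 years at diagnosis), 5 with marginal zone lymphoma (MZL, low grade, 4 to 10 years) and 2 labelled BL (high grade, 2 and 5 years). The T phenotype held 4 dogs labelled LBT (high grade, 3 to 10 years), 4 with peripheral T-cell lymphoma (PTCL, 6 to 14 years, high grade except replicate 4, which is intermediate) and 9 with T-zone lymphoma (TZL, low grade, 7 to 11 years). A single 8-year-old dog labelled NBNT, low grade, entered no comparison. The breed was Golden Retriever for 6 DLBCL, 4 MZL, 1 BL, 3 LBT, 1 PTCL and 8 TZL dogs. The other dogs of these subtypes were of the breeds Rottweiler, Labrador, Boxer, Mastiff, German Shepherd and Bichon Frise. Females were 6 of 10 DLBCL, 4 of 5 MZL, 1 of 2 BL, 3 of 4 LBT, 2 of 4 PTCL and 3 of 9 TZL dogs. The NBNT dog was a female Golden Retriever. Breed and sex were thus unequal between the subtypes. Because grade and subtype go together in the labels, their effects cannot be told apart, and the labels name no treatment. Each value is 1 dog, with the 2 arrays of 1 DLBCL case (replicates 6 and 7) averaged. Values are log2 intensities unless a linear scale is named, so a log2 difference of 1 is a doubling of signal.

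On 6 arrays the actin 3' control was far brighter than on the rest. It read 14.0 to 14.4 on the log2 scale, against 10.8 to 12.5 elsewhere, and the labels do not record the difference. The arrays were those of 2 DLBCL dogs (replicates 4 and 9), 1 PTCL dog (replicate 3) and 3 TZL dogs (replicates 1, 2 and 7). Within subtypes, 8 of the 36 subunit genes were lower and 1 was higher on these arrays (median difference -0.23 over the 36 genes, against -0.01 over all 7500 genes tested, of which 968 were lower and 709 higher). Because 3 of the 9 TZL dogs are in the set, the number of genes called without it is also given for each comparison with TZL. The GAPDH control, read as the 3' minus the 5' probe set, was 3.29 ± 0.38 in the B dogs and 2.81 ± 0.37 in the T dogs (SD, n = 17 each). By subtype it was 3.43 ± 0.30 in DLBCL and 3.51 ± 0.51 in BL. It was 2.94 ± 0.29 in MZL, near the T subtypes, whose means were 2.86 in LBT, 2.82 in PTCL and 2.78 in TZL. Median intensities per array lay between 5.57 and 6.13 on the linear scale, before the log2 step.

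The labelled lineages were visible in their markers. The mean log2 level over 7 B cell genes lay between 7.29 and 8.52 in the B dogs and between 2.48 and 7.39 in the T dogs. Over 8 T cell genes it lay between 9.12 and 11.55 in the T dogs and between 5.87 and 8.16 in the B dogs. In bulk tissue of this kind, fewer cells of a type and less RNA per cell cannot be told apart.

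All 36 subunit genes were bright in every dog. The dimmest value of any of them was 6.02, for NDUFC2 in a TZL dog (mean 6.54 ± 0.30 in TZL and 7.38 ± 0.40 in LBT), so the filter, a log2 value of 4 or more in at least 4 dogs, removed none of them and selected none by group. Averaged over the 36 genes, the log2 level was 10.53 ± 0.24 in LBT (SD, n = 4), 10.52 ± 0.11 in BL (n = 2), 10.44 ± 0.20 in DLBCL (n = 10), 10.27 ± 0.13 in MZL (n = 5), 10.24 ± 0.21 in PTCL (n = 4) and 10.00 ± 0.18 in TZL (n = 9). The TZL dogs ran from 9.66 through a median of 9.98 to 10.26, and the DLBCL dogs from 10.06 through 10.51 to 10.66. Each group overlapped its neighbours in that order, and the NBNT dog read 10.15. This mean is a description and carries no test.

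**Figure D1:**
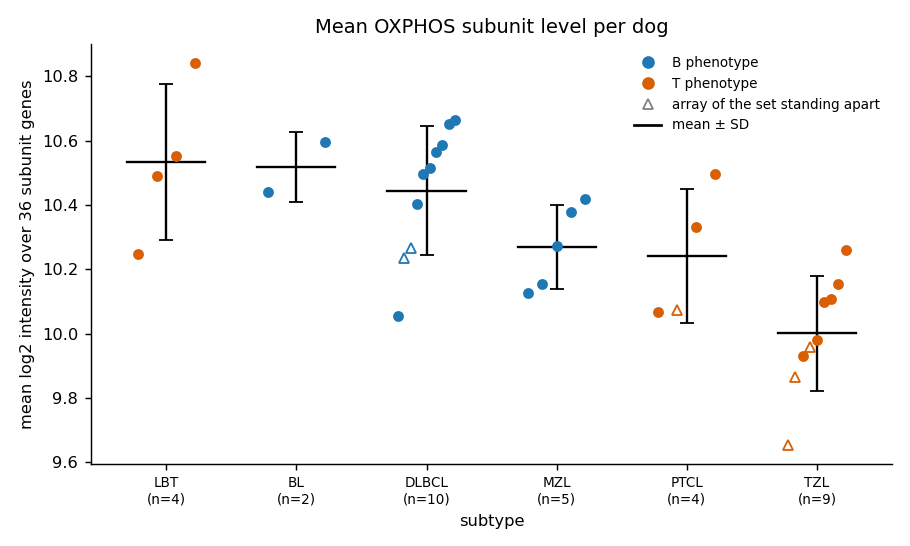
Mean log2 intensity of the 36 subunit genes for each dog (vertical axis), by subtype (horizontal axis). Bars mark the mean and SD, colours the lineage, and open triangles the 6 arrays that stood apart. The TZL dogs have the lowest mean, 10.00, and the 3 TZL arrays of the set (mean 9.83 ± 0.16) lie below the mean of the other 6 TZL dogs (10.09 ± 0.12).

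TZL was also lowest within each complex. For complex I the mean level was 9.76 ± 0.21 in TZL and 10.33 ± 0.26 in LBT, with 9.98 ± 0.20 in PTCL. For complex II, the only entry point that is also a citric acid cycle enzyme, it was 9.25 ± 0.23 in TZL and 9.83 ± 0.21 in BL. Complex III with cytochrome c stood at 10.48 ± 0.12 in TZL and 11.15 ± 0.26 in LBT, and no TZL dog (highest 10.66) reached any LBT dog (lowest 10.90). For complex IV the means spanned the narrowest range, from 11.21 ± 0.16 in TZL to 11.66 ± 0.15 in BL. Gene by gene, TZL had the lowest of the 6 subtype means for 21 of the 36 genes and the highest for none, while LBT had the highest for 16 and BL for 12. The distance between the highest and the lowest subtype mean ran from 0.22 for NDUFB8 to 2.01 for NDUFA8, with a median of 0.72, and exceeded 1 for 8 genes. These counts were not made over all genes tested, so they are a description and show nothing particular to the 36 genes. The BL and LBT means rest on 2 and 4 dogs, and 3 of the 9 TZL dogs are on the arrays that stood apart.

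**Figure D2:**
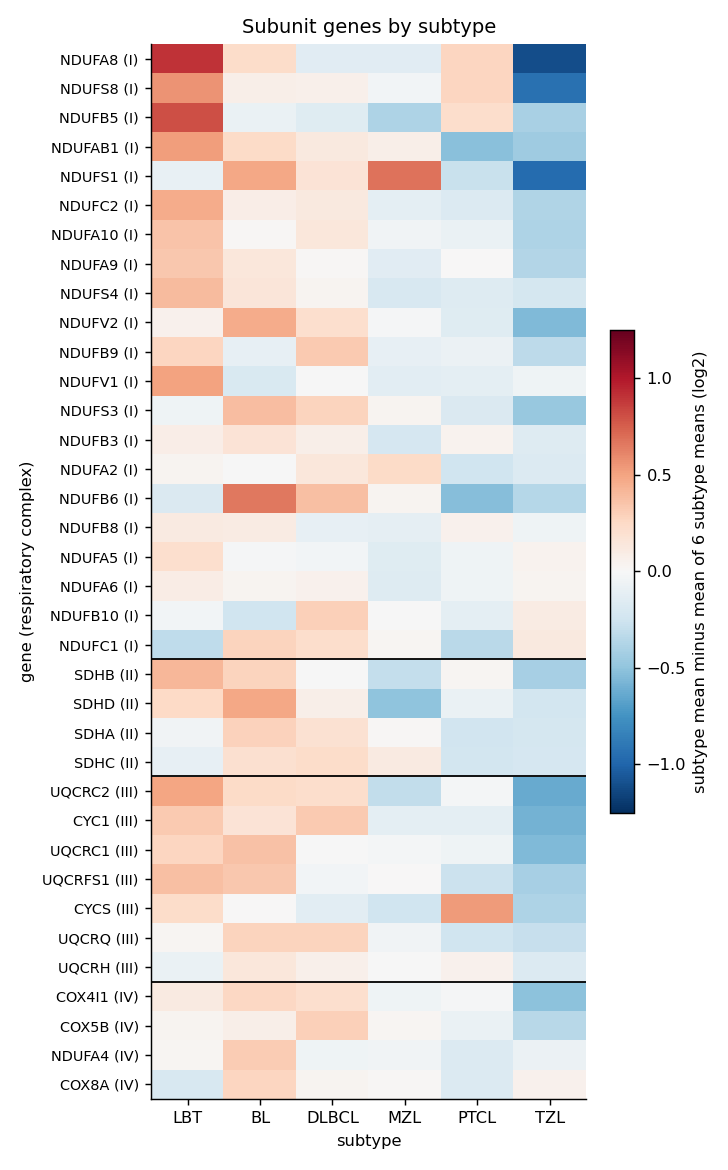
Mean log2 level of each of the 36 subunit genes in the 6 subtypes, as the deviation from the gene's mean of subtypes (colour), with genes grouped by complex. The TZL column is the lowest for 21 genes, and NDUFA8 has the widest range, 2.01.

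LBT and TZL, a high-grade and a low-grade T subtype, differed most in these genes. In LBT 15 of the 36 subunit genes were higher (41.7%, against 17.8% of all 7500 genes tested) and 1 was lower (2.78%, against 12.4%). The median difference was 0.57 over the 36 genes and 0.05 over all genes. By complex, 9 genes of complex I rose and 1 fell of 21, 1 of 4 rose in complex II, 4 of 7 in complex III and 1 of 4 in complex IV.

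NDUFA8, an accessory subunit of complex I, showed the widest difference. Its log2 level was 10.05, 10.71, 10.37 and 10.51 in the 4 LBT dogs, while the 9 TZL dogs ran from 7.60 through a median of 8.50 to 8.98. Every LBT dog was above every TZL dog, and the difference was 2.01 ± 0.25 (SE), 4.03-fold (adjusted p = 5.646e-07). Without the 6 arrays it was 1.90 ± 0.27.

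NDUFB5 sits in the membrane arm of complex I, which carries the proton channels. It read 10.05, 9.97, 9.83 and 10.22 in the LBT dogs, against 8.42 to 9.14 with a median of 8.74 in TZL. The groups did not overlap, and the difference of 1.22 ± 0.21 (SE) had an adjusted p of 5.3e-05. NDUFS8, a core subunit that holds iron-sulfur clusters, read 8.90, 10.54, 9.64 and 10.19 in LBT and from 7.23 through 8.50 to 9.07 in TZL. Here LBT replicate 1 lay within the TZL range, and the difference was 1.50 ± 0.29 (SE, adjusted p = 0.0001958).

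In complex III, UQCRC2, a core protein, read 10.56, 10.61, 10.87 and 10.61 in LBT and 9.08 to 9.80 (median 9.70) in TZL. The groups were separate, with a difference of 1.12 ± 0.20 (SE, adjusted p = 7.032e-05). UQCRFS1 is the Rieske iron-sulfur protein, which takes electrons from ubiquinol. Its values of 10.87, 11.41, 11.00 and 10.78 in LBT all exceeded the TZL range of 9.89 to 10.57 (median 10.14), by a mean of 0.79 ± 0.17 (SE, adjusted p = 0.0009399).

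SDHB, the iron-sulfur subunit of complex II, read 9.55, 10.31, 10.05 and 10.19 in LBT, against 8.65 to 9.62 (median 9.14) in TZL. LBT replicate 1 again overlapped TZL, and the difference was 0.83 ± 0.18 (SE, adjusted p = 0.0009452). In complex IV, COX4I1, the ubiquitous form of a regulatory subunit, read 11.71, 12.01, 11.87 and 11.91 in LBT and 10.90 to 11.47 (median 11.22) in TZL, a difference of 0.63 ± 0.13 (SE, adjusted p = 0.0004892) with no overlap. NDUFA10, a further accessory subunit of complex I, was 0.73 ± 0.19 (SE) higher (adjusted p = 0.00324397), although LBT replicate 1 at 9.05 lay under the highest TZL dog at 9.09. The other 7 genes that rose were CYC1, which encodes the haem protein cytochrome c1, UQCRC1, NDUFAB1, the mitochondrial acyl carrier protein, NDUFS4, NDUFC2, NDUFA9 and NDUFB9.

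The exception was NDUFC1, a small membrane-arm subunit of complex I, which fell. It read 11.31, 11.46, 11.88 and 11.55 in LBT and from 11.72 through 11.96 to 12.31 in TZL, so 1 LBT dog overlapped. The difference was -0.44 ± 0.15 (SE, adjusted p = 0.0238444). It was -0.33 ± 0.14 without the 6 arrays (adjusted p = 0.0917), and in that fit 14 genes rose and none fell. Of all 7358 genes tested in that fit, 2082 were called.

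**Figure D3:**
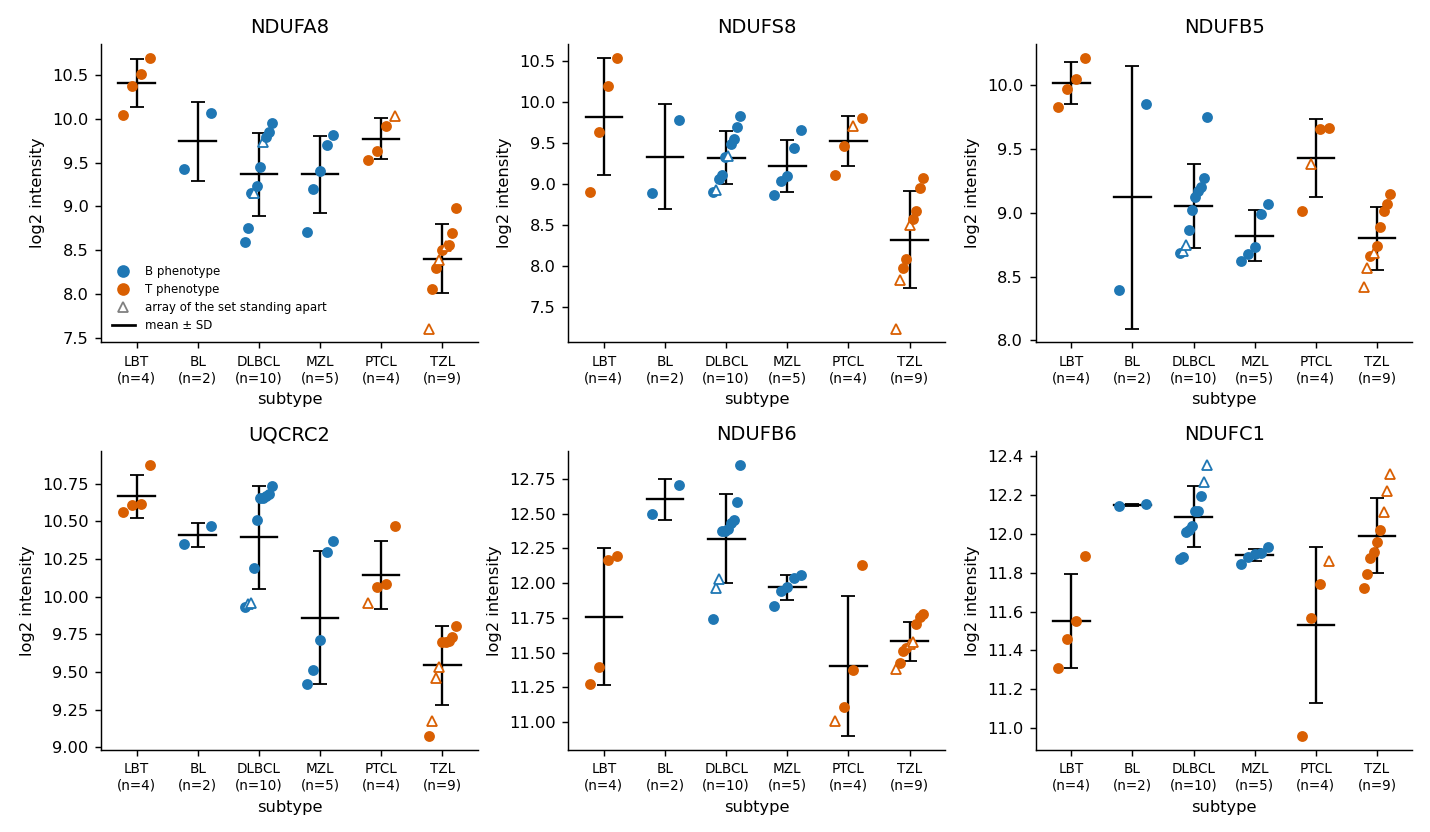
Log2 intensity of 6 complex I and III genes in each dog (vertical axes), by subtype, with the mean and SD. For NDUFA8, NDUFB5 and UQCRC2 the 4 LBT dogs lie above the 9 TZL dogs, while for NDUFC1 the LBT and PTCL means are below those of TZL, and NDUFB6 is highest in BL (12.60) and DLBCL (12.32).

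PTCL, the other T subtype of mostly high grade, was compared with the same 9 TZL dogs, so the comparison shares its controls with the one above. Here 6 of the 36 genes were higher (16.7%, against 7.6% of all genes) and 1 was lower (2.78%, against 6.07%), with a median difference of 0.20 against 0.03 over all genes. The higher genes were NDUFA8, NDUFS8 and NDUFB5 of complex I, UQCRC2 of complex III, cytochrome c itself and COX4I1 of complex IV.

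NDUFA8 read 9.53, 9.92, 10.03 and 9.63 in the PTCL dogs, all above the highest TZL dog at 8.98, and the difference was 1.38 ± 0.25 (SE), 2.60-fold (adjusted p = 0.0003544). NDUFS8 read 9.47, 9.11, 9.70 and 9.81, also above the highest TZL dog at 9.07, by a mean of 1.20 ± 0.29 (SE, adjusted p = 0.00466635). Cytochrome c (CYCS), which in addition to carrying electrons triggers caspases when it leaves the mitochondrion, read 11.33, 10.88, 11.23 and 11.10, against 9.66 to 10.83 with a median of 10.18 in TZL. Its groups were separate by a narrow margin, and the difference was 0.92 ± 0.25 (SE, adjusted p = 0.0111019).

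COX4I1 was 0.50 ± 0.13 (SE) higher in PTCL (adjusted p = 0.0101408), with PTCL values of 11.64, 11.65, 11.75 and 11.94 above the TZL maximum of 11.47. UQCRC2 was 0.60 ± 0.20 (SE) higher (adjusted p = 0.038672), its PTCL values of 10.06, 10.47, 9.96 and 10.08 above the TZL maximum of 9.80. With the mean of its probe sets UQCRC2 differed by 0.35 (adjusted p = 0.428). NDUFB5, at 9.66, 9.67, 9.39 and 9.01, was 0.63 ± 0.21 (SE) higher (adjusted p = 0.0400487), and its lowest value, in the dog of intermediate grade, overlapped TZL.

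NDUFC1 was again lower, at 11.57, 10.96, 11.86 and 11.74 against 11.72 to 12.31 in TZL, by -0.46 ± 0.15 (SE, adjusted p = 0.0357802) with overlapping groups. The count of 7 depended on the dogs. Without the 6 arrays NDUFA8 (1.18 ± 0.29, adjusted p = 0.0132) and CYCS (1.05 ± 0.25, adjusted p = 0.0109) remained called and the other 5 did not. That is 2 of the 36 genes, beside 547 of all 7358 genes tested in that fit. With the arrays it was 7 of 36, beside 1025 of 7500, so the larger share among the subunit genes rested on the set. Leaving out TZL replicate 1 or 2 or PTCL replicate 1 or 2 left 4.

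**Figure D4:**
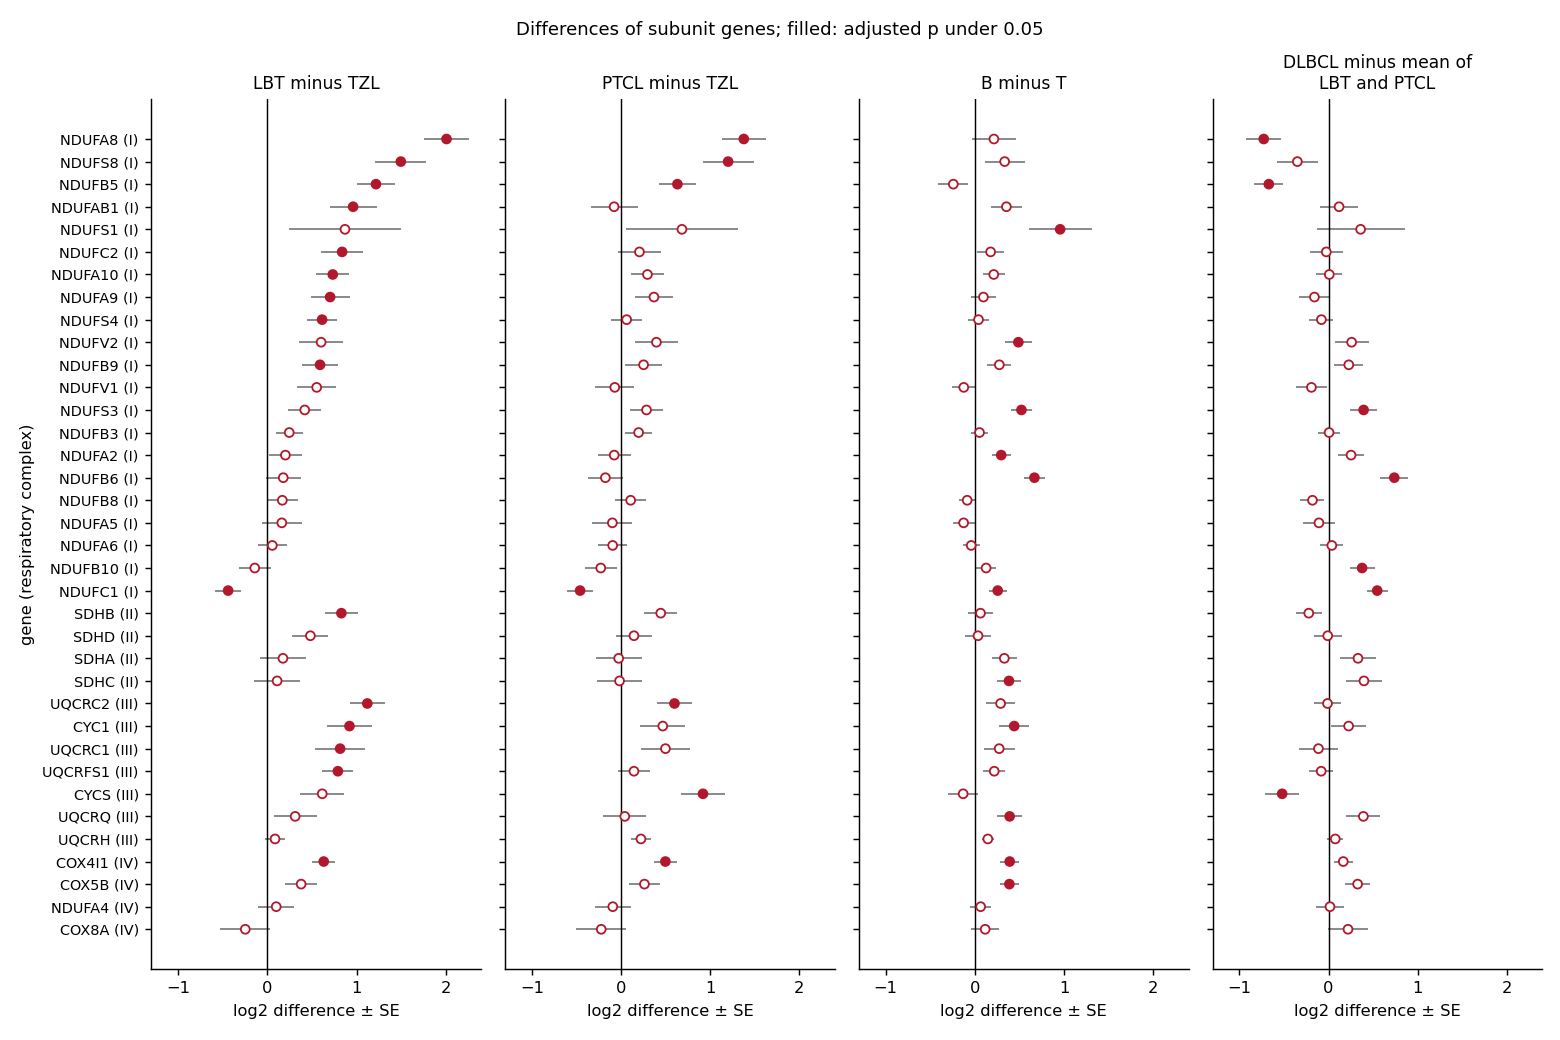
Log2 difference ± SE for each of the 36 subunit genes in 4 comparisons (panels), with called genes marked. In LBT against TZL 15 genes lie above 0 and are called, in PTCL against TZL 6, and NDUFC1 is called below 0 in both.

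LBT and PTCL were compared directly, because a gene called against TZL in one and not in the other is not thereby shown to differ between them. None of the 36 genes was called in limma's test, against 0.467% of all genes higher in LBT and 0.213% lower. The differences leaned one way, with 33 of 36 above 0 and a median of 0.27 (0.05 over all genes), and 8 of the 36 had an unadjusted p under 0.05, against 934 of all 7500 genes. The smallest p belonged to NDUFAB1, which read 10.99, 11.93, 11.60 and 11.44 in LBT and 10.43, 10.75, 9.69 and 10.93 in PTCL. Those groups did not overlap, but the difference of 1.04 ± 0.31 (SE) had an adjusted p of 0.116 over all genes. The alternatives run gave 0 called genes in this comparison as well.

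The low-grade subtypes of the lineages were set against each other in MZL against TZL, again with the same TZL dogs. In MZL 5 of 36 genes were higher (13.9%, against 15.2% of all genes) and none was lower (against 12.3%), with 12 of the 36 at an unadjusted p under 0.05. The share of higher genes was near the background, so it is not a result about these genes as a group. The median difference was 0.24, against 0.08 over all genes.

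COX4I1 read 11.76, 11.85, 11.72, 11.63 and 11.60 in MZL, above the TZL maximum of 11.47, by a mean of 0.46 ± 0.12 (SE, adjusted p = 0.00491148). Its lowest DLBCL value was 11.69, and every dog of the other 5 subtypes exceeded every TZL dog for this gene. NDUFA8 read 9.20, 9.70, 9.82, 8.71 and 9.41 in MZL, with 1 dog inside the TZL range, and was 0.97 ± 0.23 (SE) higher (adjusted p = 0.00231074). NDUFS8 was 0.89 ± 0.27 (SE) higher (adjusted p = 0.0119377) and NDUFS3, a core subunit, 0.51 ± 0.17 (SE) higher (adjusted p = 0.0285032).

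NDUFS1, the largest core iron-sulfur subunit of complex I, was 1.65 ± 0.58 (SE) higher in MZL (adjusted p = 0.0330053), and 3 TZL arrays lay far below the rest. The MZL dogs read 10.72, 9.40, 11.08, 10.71 and 10.50. TZL replicates 1, 2 and 7, the TZL arrays of the set that stood apart, read 6.51, 6.67 and 7.05, and the other 6 TZL dogs read 9.51 to 10.16. Without the set the difference was 0.60 ± 0.29 (adjusted p = 0.137), and the next brightest probe set of NDUFS1 differed by 0.24. In this comparison 2 genes, NDUFA8 and COX4I1, were called without the set, and 3 when MZL replicate 1 or 3 or TZL replicate 2 was left out. Without the set 1821 of all 7358 genes tested were called.

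Across lineages, 17 B dogs and 17 T dogs were compared. The T dogs included the 9 TZL dogs, the subtype with the lowest mean level, and the B dogs 5 low-grade MZL dogs. Grade and subtype were thus unequal between the lineages, and their part cannot be told apart from lineage here. The mean level over the 36 genes was 10.40 in B, 10.18 in T and 10.39 in the 8 LBT and PTCL dogs. In the B dogs 11 of the 36 genes were higher (30.6%, against 24.2% of all genes) and none was lower (against 22.3%). The share of higher genes was near the background, so it is not a result about these genes as a group. The median difference was 0.22, against 0.03 over all genes, and 30 of 36 differences were above 0. The higher genes were 6 of complex I, 1 of complex II, 2 of complex III and 2 of complex IV.

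NDUFB6, a membrane-arm subunit of complex I, differed most clearly. It ran from 11.74 through a median of 12.38 to 12.85 in the B dogs and from 11.01 through 11.53 to 12.19 in the T dogs. The ranges overlapped, and the difference was 0.67 ± 0.12 (SE), 1.59-fold (adjusted p = 3.229e-05). The 2 further probe sets of this gene gave differences of 0.65 and -0.16.

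NDUFS3 ran from 10.10 through 10.92 to 11.41 in B and from 9.77 through 10.24 to 10.96 in T, a difference of 0.52 ± 0.11 (SE, adjusted p = 0.0003562) between overlapping groups. NDUFV2, a subunit of the module that oxidises NADH, was 0.49 ± 0.15 (SE) higher in B (adjusted p = 0.00794384), and the accessory subunit NDUFA2 0.30 ± 0.10 (SE) higher (adjusted p = 0.019971). In complex II the membrane anchor SDHC ran from 10.22 through 10.58 to 11.20 in B and from 9.42 through 10.25 to 11.06 in T, 0.38 ± 0.14 (SE) higher (adjusted p = 0.0235738).

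UQCRQ, a small subunit of complex III, was 0.39 ± 0.14 (SE) higher in B (adjusted p = 0.0207546). In complex IV, COX4I1 and COX5B, both nuclear subunits around the catalytic core, were each 0.39 higher (SE 0.10 and 0.11, adjusted p = 0.00254658 and 0.00401727). COX5B ran from 11.83 through 12.15 to 13.02 in B and from 11.42 through 11.76 to 12.39 in T. NDUFS1, CYC1 and NDUFC1 were the other genes called.

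The 3' to 5' difference of the GAPDH control, given above, was higher in the B dogs too. With the actin and GAPDH differences as covariates, 6 of the 36 genes were called, among them NDUFB6, NDUFS3 and COX5B, while COX4I1, NDUFV2, UQCRQ, SDHC and CYC1 were not (adjusted p between 0.0687 and 0.204). Of the 6 arrays with the bright actin control, 4 are of T dogs and 2 of B dogs. Without them NDUFA2 (0.18 ± 0.10, adjusted p = 0.137), SDHC (0.30 ± 0.15, adjusted p = 0.106) and CYC1 (0.36 ± 0.20, adjusted p = 0.14) were not called, and the other 8 genes were. Over all genes, 2719 of 7500 were called with the covariates and 3166 of 7358 without the 6 arrays.

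Within the B lineage, DLBCL and MZL differ in grade. They also differed in the RNA controls, read as 3' minus 5' probe set. The GAPDH control was 3.43 ± 0.30 in DLBCL and 2.94 ± 0.29 in MZL, and the actin control 1.37 ± 1.50 and -0.48 ± 0.40 (SD). None of the 36 genes was called in limma's test, as was true of all 7500 genes (0% higher and 0% lower). At an unadjusted p under 0.05 there were 4 of the 36 genes and 977 of all genes. The median difference was 0.19, against -0.03 over all genes, with 31 of 36 above 0. SDHD, a membrane anchor of complex II, had the smallest p, with 7.56 through 8.40 to 9.11 in DLBCL and 7.59 through 7.79 to 7.92 in MZL, a difference of 0.58 ± 0.18 (SE, adjusted p = 0.178). UQCRC2 followed with 0.53 ± 0.18 (SE, adjusted p = 0.193). When arrays were weighted by their quality, 3 of the 36 genes were called, namely CYC1 (0.84 ± 0.21), SDHD (0.65 ± 0.16) and NDUFB9 (0.52 ± 0.15). That fit called 378 of all 7500 genes. With the RNA control differences as covariates none of the 7500 genes was called.

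Whether the step from low to high grade differed between the lineages was tested as the difference of the DLBCL minus MZL and PTCL minus TZL steps. Of the 36 genes 1 differed, NDUFA8, downwards (2.78%, against 1.21% of all genes downwards and 0.747% upwards). The mean of NDUFA8 was 9.37 ± 0.47 in DLBCL (SD, n = 10) and 9.37 ± 0.44 in MZL (n = 5), and PTCL exceeded TZL by 1.38. The difference between these steps was -1.38 ± 0.34 (SE, adjusted p = 0.0246162). It was -1.20 ± 0.37 without the 6 arrays (adjusted p = 0.167) and -0.98 with array weights (adjusted p = 0.12). It also lost its call when MZL replicate 2 or 3 or PTCL replicate 2 or 3 was left out. Leaving out PTCL replicate 4 gave 2 called genes.

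At higher grade the lineages were compared as DLBCL against the mean of LBT and PTCL. In DLBCL 4 genes were higher (11.1%, against 17.1% of all genes) and 3 lower (8.33%, against 19.9%), both shares below the background, and the median difference was 0.03 (-0.02 over all genes). The called genes lay in complex I apart from cytochrome c. NDUFB6 ran from 11.74 through 12.38 to 12.85 in DLBCL and NDUFC1 from 11.87 through 12.08 to 12.36. In the 8 LBT and PTCL dogs they ran from 11.01 through 11.38 to 12.19 and from 10.96 through 11.56 to 11.88. The differences were 0.74 ± 0.16 (SE, adjusted p = 0.0003714) and 0.55 ± 0.12 (SE, adjusted p = 0.000443), with little overlap for NDUFC1.

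NDUFB10 and NDUFS3 were higher in DLBCL by 0.38 ± 0.14 and 0.39 ± 0.15 (SE, adjusted p = 0.0343696 and 0.0355026). NDUFB5 was lower, with 8.69 through 9.07 to 9.75 in DLBCL against 9.01 through 9.75 to 10.22 in the T dogs, by -0.67 ± 0.16 (SE, adjusted p = 0.00181423). NDUFA8 was lower by -0.73 ± 0.20 (SE, adjusted p = 0.00421363) and CYCS by -0.52 ± 0.19 (SE, adjusted p = 0.034801). The count of 7 fell to 4 without LBT replicate 1 or PTCL replicate 1. CYCS was not called without the 6 arrays (-0.36, adjusted p = 0.139), with quantile normalization (adjusted p = 0.0615) or with array weights (adjusted p = 0.0846), and NDUFS3 was not with median centring (adjusted p = 0.0591) or the RNA control covariates (adjusted p = 0.1).

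Over the 8 comparisons 26 of the 36 genes were called at least once and 10 never were. The share of 72.2% was near that of all genes tested, of which 66.8% were called at least once. The 10 subunit genes never called were NDUFA4, NDUFA5, NDUFA6, NDUFB3, NDUFB8, NDUFV1, SDHA, SDHD, UQCRH and COX8A. NDUFB8, an accessory subunit of complex I, had subtype means between 10.74 and 10.96. For its chosen probe set, UQCRH, the hinge protein of complex III, ran from 12.44 to 13.10 over the 34 dogs. It read 12.62 ± 0.10 in TZL and 12.93 ± 0.08 in BL. SDHA, the flavoprotein that oxidises succinate, read 9.58 ± 0.27 in TZL and 9.98 ± 0.60 in DLBCL. COX8A read 10.74 ± 0.31 in TZL and 10.50 ± 0.64 in LBT, and NDUFA4, a complex IV subunit despite its name, 11.20 ± 0.27 and 11.29 ± 0.47. A miss at this number of dogs does not show that these genes were equal.

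Different probe sets of 1 gene did not always give the same difference. For NDUFS1 the chosen probe set gave 0.96 in B against T and -0.51 in DLBCL against MZL, and the next brightest gave 0.18 and 0.41. For NDUFC1 a second probe set fell further than the chosen one, by -0.90 in PTCL and -0.88 in LBT against TZL. For CYCS and NDUFB5 the second probe sets rose by 1.10 and 0.66 in PTCL against TZL, near the 0.92 and 0.63 of the chosen ones. For UQCRC2 the chosen probe set gave 0.60 in that comparison, and the next brightest ones gave 0.86 and -0.18, reaching a log2 value of 4 in 26 and 16 of the 34 dogs. For UQCRH, which was never called, the chosen probe set gave 0.09 in LBT against TZL and 0.16 in MZL against TZL. The next brightest ones, at a log2 value of 4 or more in all 34 dogs, gave 0.51 and 0.58 in LBT against TZL. In MZL against TZL they gave 0.46 and 0.67. NDUFA8 and NDUFS8 had 1 probe set each.

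Across dogs the subunit genes also varied together once subtype means were removed. Over 34 dogs the median Pearson correlation between pairs of the 36 genes was 0.27 (630 pairs, 82.9% above 0), against 0.02 over all pairs of the 7500 genes. It was 0.28 within complex I, 0.48 within complex II (6 pairs), 0.21 within complex III and 0.14 within complex IV (6 pairs). The genes closest to the mean of the other 35 were SDHB (r = 0.84), NDUFA9 (0.81) and NDUFAB1 (0.80), and those least tied to it were NDUFC1 (-0.03), UQCRH (0.01) and CYCS (0.07). The points share arrays, and the 6 arrays that stood apart are among them, so these values are a description.

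Other mitochondrial genes were taken from lists chosen by function. Their counts are to be read against the shares of all 7500 genes called higher, which were 24.2% in B against T, 17.8% in LBT against TZL, 7.6% in PTCL against TZL and 15.2% in MZL against TZL, and against 22.3%, 12.4%, 6.07% and 12.3% called lower. ATP synthase, the complex that uses the proton gradient, had 10 tested genes, of which 6 rose in LBT against TZL and 3 each in PTCL against TZL, MZL against TZL and B against T, with none lower. For B against T that is 30% of the list, near the share of all genes. Its medians were 0.53, 0.26, 0.22 and 0.21 in that order. ATP5F1B, the catalytic beta subunit, was 0.43 ± 0.11 (SE) higher in PTCL than in TZL (adjusted p = 0.0102991) and 0.27 ± 0.10 (SE) higher in B than in T (adjusted p = 0.0204848). Of 12 further complex I subunits 4 (33.3%) rose in LBT against TZL, and in B against T NDUFS7 rose and NDUFA3 fell. UQCR11 of complex III was 0.80 ± 0.18 (SE) higher in B (adjusted p = 0.0003969).

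Assembly factors help build the complexes without being part of them. Of 37 tested, 16 rose and 1 fell in B against T (median 0.33), 12 rose and 2 fell in LBT against TZL (0.52), 8 rose and 1 fell in PTCL against TZL (0.18), and 11 rose in MZL against TZL (0.26). The shares higher were 43.2%, 32.4%, 21.6% and 29.7% in that order. NUBPL, an iron-sulfur factor for complex I, was 1.41 ± 0.21 (SE), or 2.65-fold, higher in B (adjusted p = 1.241e-06). The complex I factors ACAD9 and NDUFAF1 were 0.92 ± 0.16 and 0.75 ± 0.12 (SE) higher (adjusted p = 1.925e-05 and 8.208e-06). In PTCL against TZL OXA1L, the inner-membrane insertase, rose by 0.54 ± 0.13 (SE, adjusted p = 0.00536115) and LRPPRC, which stabilises mitochondrial mRNA, by 0.96 ± 0.24 (SE, adjusted p = 0.00685851).

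Of 71 mitochondrial ribosome genes 25 (35.2%) rose and 3 (4.23%) fell in B against T (median 0.26), with MRPS30 0.76 ± 0.09 (SE) higher (adjusted p = 1.586e-08). In LBT against TZL 13 rose and 2 fell (median 0.31), and the 18.3% higher is near the 17.8% of all genes. In PTCL against TZL 2 rose and 1 fell, and the 2.82% higher is below the 7.6% of all genes. Of 14 genes of the citric acid cycle and pyruvate dehydrogenase 7 (50%) rose in LBT against TZL. In B against T 4 rose (28.6%, near the 24.2% of all genes) and 2 fell, and fumarase, FH, was 2.01-fold higher (adjusted p = 1.981e-06). Carriers and import factors had 11 of 21 (52.4%) higher in B against T, among them TIMM8A (1.18 ± 0.17, adjusted p = 7.236e-07) and the chaperone HSPD1 (0.66 ± 0.10, adjusted p = 1.096e-06). In PTCL against TZL 2 of the 21 rose, and 9.52% is near the 7.6% of all genes. Of these SLC25A5, an ADP/ATP carrier, rose by 0.94 ± 0.20 (SE, adjusted p = 0.00194601).

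Regulators of mitochondrial transcription and biogenesis had 5 of 11 (45.5%) higher in B against T, including TFB1M (0.88 ± 0.19, adjusted p = 0.0003108) and POLG2 (0.68 ± 0.18, adjusted p = 0.002481). GABPB1, a subunit of nuclear respiratory factor GABP, was 1.53 ± 0.32 (SE) higher in PTCL than in TZL (adjusted p = 0.00162223). It was the 1 gene of 11 called there, and 9.09% is near the 7.6% of all genes. The probe sets of PPARGC1A, PPARGC1B and NRF1 stayed below a log2 value of 4 in every dog. Among the 8 antioxidant enzymes GPX1 and SOD1, found largely in the cytosol, were lower in B. The differences were -1.54 ± 0.13 and -0.72 ± 0.13 (SE, adjusted p = 2.751e-11 and 1.813e-05), and PRDX3, a mitochondrial peroxiredoxin, was higher by 0.53 ± 0.16 (adjusted p = 0.00601413). In PTCL against TZL the mitochondrial enzymes SOD2 and PRDX3 rose by 1.05 ± 0.23 and 0.91 ± 0.20 (SE, adjusted p = 0.002743 and 0.00193782). No list had a called gene in DLBCL against MZL, and the subunits encoded by the mitochondrial genome had no probe set under their symbols and were not analysed here.

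**Figure D5:**
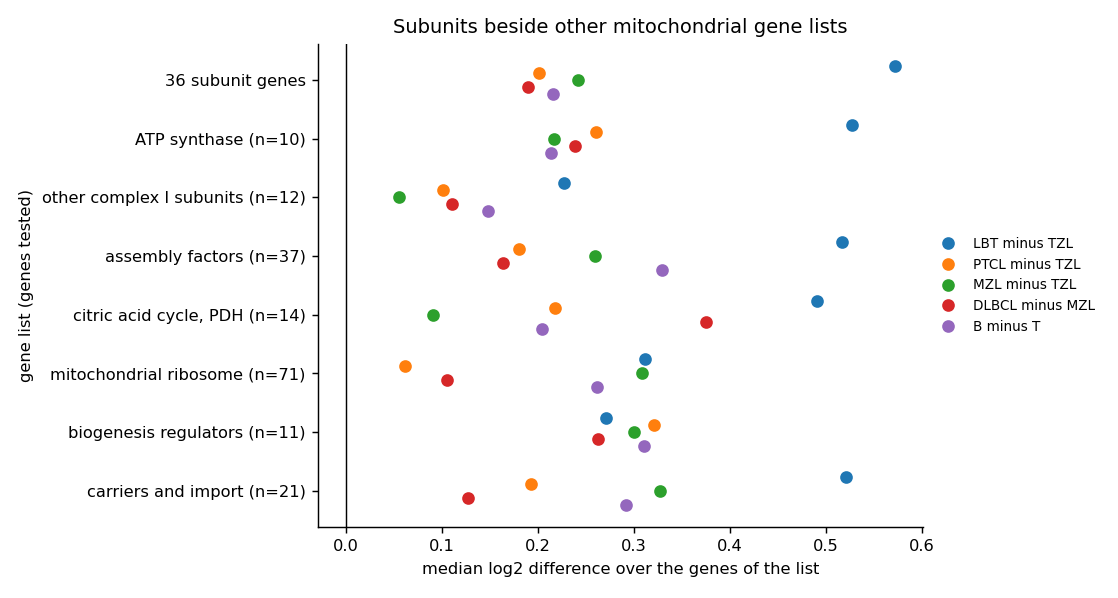
Median log2 difference over the subunit genes and over 7 lists of other mitochondrial genes (rows) on the horizontal axis, with 1 colour for each of 5 comparisons. The subunit median is 0.57 in LBT against TZL and between 0.19 and 0.24 in B against T, DLBCL against MZL, PTCL against TZL and MZL against TZL.

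Genes of cell division moved with the same subtypes. The mean level over 20 mitosis genes was 3.42 to 6.46 in TZL, 6.77 to 8.84 in PTCL, 7.93 to 8.32 in LBT, 5.74 to 7.28 in MZL and 6.72 to 8.78 in DLBCL. All 20 rose in LBT against TZL (median 3.11) and in PTCL against TZL (2.92), and 9 rose in MZL against TZL (1.22). DLBCL against MZL had a median of 1.33 with none called. The part of cell division in the subunit differences was not tested.

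Markers of other cells moved in part as well. Macrophage and dendritic genes, 10 in all, had a mean level of 4.65 to 7.26 in PTCL, 3.65 to 4.51 in LBT and 2.88 to 6.33 in TZL, and of 8 tested CD14 and CD68 rose in PTCL against TZL. Among 8 stromal genes FN1 rose in PTCL against TZL, and the list ranged from 3.07 to 5.31 in PTCL, 2.51 to 3.50 in LBT and 2.33 to 4.92 in TZL. Of 6 endothelial genes KDR rose in PTCL against TZL, while CDH5, VWF and TEK stayed below a log2 value of 4. B cell genes ranged from 3.27 to 7.28 in PTCL, 2.48 to 5.65 in LBT and 3.49 to 7.39 in TZL. In LBT against TZL 3 of 6 tested B cell genes, CD22, CD79A and CD79B, were lower (list median -1.97), 1 of 8 T cell genes, CD5, was lower, and CD14 and the endothelial gene ENG were higher. The part of these cells in the PTCL and LBT differences was not tested. Muscle genes were mostly near background: of 7 with a probe set, 5 stayed below a log2 value of 4 in all 34 dogs. These were ACTA1, MYH7, TNNT1, and COX6A2 and COX4I2, muscle and lung forms of complex IV subunits. COX7A1, another muscle form, had a median of 2.51 and a highest value of 4.44.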

How the data were processed

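RNA from primary tumours was hybridised as biotin-labelled cRNA, per the labels' protocols. The deposited intensities, 1 per probe set and array on a linear scale, had been summarised and normalized by the authors with GCRMA (version not stated), per the submitters' processing notes. A floor of 1, which changed no value, preceded the log2 step. Gene names came from the platform annotation of 43035 probe sets, of which 29254 had 1 symbol. The filter asked for log2 values of 4 or more in 4 or more of the 34 dogs, and the 7500 genes that met it were tested with limma 3.58.1 in R 4.3.3 (lmFit and eBayes, two-sided, Benjamini-Hochberg adjustment over all genes tested, called at an adjusted p under 0.05). B against T used 2 group means, and the other contrasts 6 subtype means with a shared spread. The steps were tested on simulated data. In each comparison, the called subunit genes with the smallest adjusted p were named with values, up to 8 in each direction, and each other list gave up to 3 called genes. SDHD, NDUFAB1 and the genes shown as never called were picked after their values were seen. The subunit genes and the other lists were chosen with earlier results of these data known. The number of arrays limits the precision, and p-values measure the spread between dogs.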

Additional observations from a re-analysis of the deposited data

Results flagged for a closer look

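Among 205 groups of 4 to 10 dogs examined, 8 held 1 dog far from the others, and chance alone gives about 1 in 20 groups. In complex I, NDUFA5 read 9.53 in LBT replicate 4, below the other LBT dogs at 10.21 to 10.29. NDUFA6 read 11.22 in DLBCL replicate 8, above the 10.33 to 10.64 of the other DLBCL dogs. NDUFB9 read 11.64 in LBT replicate 2, above 10.56 to 10.69. NDUFV2 read 8.01 in TZL replicate 1, 1 of the 6 arrays that stood apart, below 9.21 to 9.79. In complex III, UQCRC2 read 10.87 in LBT replicate 3, above 10.56 to 10.61, and UQCRQ read 10.78 in DLBCL replicate 3, below 11.46 to 12.12. In complex IV, COX5B read 13.02 in DLBCL replicate 8, above 12.04 to 12.48, and COX8A read 9.55 in DLBCL replicate 3, below 10.42 to 11.19.

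The grade steps of the lineages differed for NDUFA8, by -1.38 on the log2 scale in limma's interaction contrast, with the step larger in the T lineage.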

How the results depend on the processing

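No paired analysis was possible because the replicate numbers were given in accession order and pair no dogs. The counts of called subunit genes were recomputed under 12 alternatives and without each dog. With array weights they rose to 20 for B against T and to 3 for DLBCL against MZL, with 4 for PTCL against TZL, 11 for MZL against TZL and 0 for the grade steps. Among all 7500 genes array weights called 4072, 378, 742, 3034 and 153 in that order, against 3486, 0, 1025, 2065 and 147 without weights. Without the 6 arrays that stood apart they were 2 for PTCL against TZL, 2 for MZL against TZL and 0 for the grade steps. The counts over all 7358 genes tested in that fit were 547, 1821 and 45. Sex, breed and age as covariates gave 3 for MZL against TZL, RNA control covariates 6 for B against T, and the trend and robust variance model 2 for the grade steps. Over all 7500 genes these fits called 1660, 2719 and 152 in that order. Leaving out each dog in turn gave 4 to 10 for DLBCL against the mean of LBT and PTCL, 3 to 6 for MZL against TZL, 4 to 7 for PTCL against TZL and 0 to 2 for the grade steps. It gave 10 to 13 for B against T and 11 to 17 for LBT against TZL. The cause of these shifts was not tested. No named difference changed direction. Of 37 named differences, 20 kept their call under all 12 alternatives and 27 without each dog.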
